A study of Homo sapiens with 6 samples.

Results

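The genes described here are 10 simple epithelial and stress keratins, *KRT7*, *KRT8*, *KRT10*, *KRT17*, *KRT18*, *KRT19*, *KRT20*, *KRT23*, *KRT80* and *KRT81*. They were chosen by symbol from the 20381 genes of an RNA-seq count table, which holds 55 keratin genes in all. RNA was measured in HCCLM3, a human hepatocellular carcinoma cell line with little *PON1*, a gene whose product is a lactone-hydrolysing enzyme that hepatocytes secrete onto high-density lipoprotein. The PON1-OE group (3 libraries) carried a lentivirus with the *PON1* coding sequence and the NC group (3 libraries) an empty lentivirus. Both groups had therefore been transduced. The study describes stable lines selected with puromycin and cells grown in RPMI-1640 with fetal bovine serum. The sources used here differ on the serum content and on whether RNA was taken shortly after transduction or from stable lines, and they do not state whether the libraries of a group came from separate cultures. The p-values below therefore measure the spread between these libraries, which may be technical, and describe 1 cell line.

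Keratins are the intermediate filament proteins of epithelia. A filament is built from heterodimers of an acidic type I keratin and a basic type II keratin, so both types are needed in a cell, and keratins without a partner are degraded. In liver, hepatocytes hold mainly the pair *KRT8* (type II) and *KRT18* (type I), while the cells of the bile ducts add *KRT7* (type II) and *KRT19* (type I). *KRT20* (type I) is best known from intestinal epithelium, urothelium and Merkel cells. *KRT17* and *KRT23* (type I) are known as keratins induced in stressed or injured epithelium, *KRT10* (type I) from the suprabasal epidermis, *KRT80* (type II) from many epithelia, and *KRT81* (type II) from hair. The human type I genes lie together on chromosome 17 and the type II genes on chromosome 12, where *KRT18* is the one type I gene.

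Start sites of neighbouring type I genes are shown first, because genes of this cluster differed widely in level while lying close together. The windows run from 250 bases before to 50 bases after the start and are RefSeq sequence of GRCh38.p14, on the minus strand, 5′ to 3′. *KRT20* (chr17:40885193-40885492) was an abundant keratin, *KRT10* (chr17:40822565-40822864) a moderate one, and *KRT12* (chr17:40867174-40867473), a keratin of the corneal epithelium outside the 10 genes, was near the detection limit. Capitals mark the motif matches.
KRT20: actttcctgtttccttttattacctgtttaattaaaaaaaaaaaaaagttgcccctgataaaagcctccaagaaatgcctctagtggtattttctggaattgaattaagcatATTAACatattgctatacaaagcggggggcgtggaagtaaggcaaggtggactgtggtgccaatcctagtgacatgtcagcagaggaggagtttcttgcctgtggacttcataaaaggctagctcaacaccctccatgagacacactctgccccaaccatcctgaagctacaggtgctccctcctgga
KRT10: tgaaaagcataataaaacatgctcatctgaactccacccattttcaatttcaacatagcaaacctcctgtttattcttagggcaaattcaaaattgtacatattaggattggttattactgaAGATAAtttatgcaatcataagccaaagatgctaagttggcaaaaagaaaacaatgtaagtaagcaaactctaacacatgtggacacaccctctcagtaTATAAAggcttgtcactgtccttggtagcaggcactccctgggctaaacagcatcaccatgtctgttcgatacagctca
KRT12: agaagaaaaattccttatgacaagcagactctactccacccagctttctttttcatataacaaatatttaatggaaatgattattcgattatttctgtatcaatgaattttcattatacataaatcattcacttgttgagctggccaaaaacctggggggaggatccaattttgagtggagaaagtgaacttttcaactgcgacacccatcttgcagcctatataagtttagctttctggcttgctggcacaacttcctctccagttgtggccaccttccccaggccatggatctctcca
The letters searched, on both strands, were TATAAA for the box of that name near many starts, GGGCGG for GC boxes, TGANTCA for AP-1, GTTAAT for homeodomain factors and AGATAA for GATA factors. The *KRT20* window held GTTAAT on the opposite strand, its first base at −138 from the start, a motif found in 6.88% of 35116 promoters of the same length. The *KRT10* window held TATAAA at −29 (11.5% of promoters) and AGATAA at −128 (10.3%). None of the letters occurred in the *KRT12* window, and GGGCGG (45.0% of promoters) and TGANTCA (7.71%) occurred in none of the 3. A match describes the letters of a window and is no evidence of binding. The GC content was 44.0%, 37.7% and 40.0%, below the median of 58.7% over all promoters. The start of *KRT20* lay 18.0 kb from that of *KRT12* and 62.6 kb from that of *KRT10*.

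The libraries held 15706672 to 17948383 estimated counts, and 3 counts in a library, used here as the detection floor, corresponded to 0.166 to 0.192 CPM, the counts per 10 to the power of 6 after TMM normalization. *PON1* itself was read first as a check of the labels. It had 0, 2 and 3 counts in the NC libraries and 155, 181 and 167 in the PON1-OE libraries. No NC library exceeded the floor, and the PON1-OE mean of 10.5 ± 0.955 CPM (SD, n = 3) was at least 60.1-fold higher than 3 counts in an NC library. Every PON1-OE library was therefore far above every NC library, as labelled.

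The cells held the simple epithelial pair *KRT8* and *KRT18* together with *KRT20* at high levels and the bile duct pair *KRT7* and *KRT19* at low ones. On the per-length scale, CPM per kilobase of the main transcript (RPKM), the mean over the 6 libraries was 1265 ± 74.2 (SD) for *KRT8*, 999.95 ± 44.1 for *KRT18* and 826 ± 40.2 for *KRT20*. These levels ranked 29th, 47th and 68th among 15405 genes with any count and a known length. A gap of 38.8-fold in level separated *KRT20* from the next keratin. That keratin, *KRT80*, stood at 21.3 RPKM, followed by *KRT10* at 14.4, *KRT7* at 4.85 and *KRT19* at 2.85. *KRT17*, *KRT23* and *KRT81* had mean levels of 0.165, 0.0979 and 0.0630 RPKM. From *KRT8* down to *KRT17*, the ranges of neighbouring genes over the 6 libraries did not overlap, while those of *KRT17* and *KRT23*, and of *KRT23* and *KRT81*, did. The 3 most abundant genes made up 97.4% to 97.7% of all keratin CPM in a library.

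**Figure D1:**
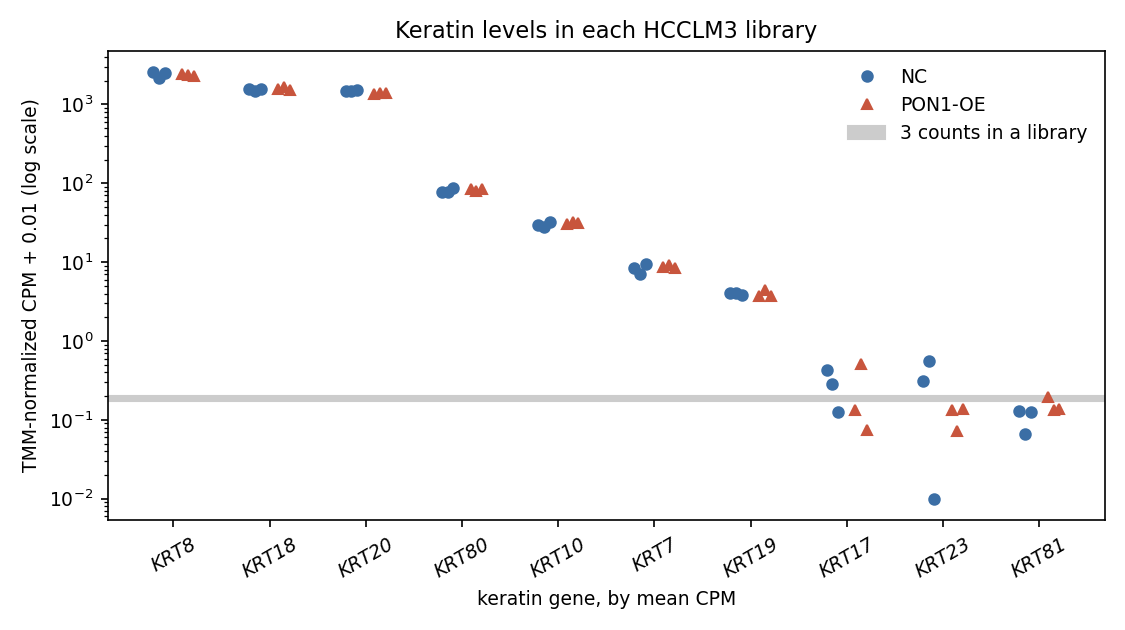
TMM-normalised CPM plus 0.01 (log scale) of the 10 keratins in each of the 3 NC (circles) and 3 PON1-OE (triangles) libraries, with the grey band at 3 counts in a library. *KRT8*, *KRT18* and *KRT20* stood at 1342 CPM or more in every library, *KRT19* near 4 CPM, and *KRT23*, *KRT17* and *KRT81* at or around the band.

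Between PON1-OE and NC, none of the 10 keratins passed the test across all genes. Of the 7 that had enough counts to enter it, 4 had a higher and 3 a lower fitted level in PON1-OE, with a median log2FC of 0.044 beside −0.0025 over all 11958 genes tested. By edgeR's quasi-likelihood test, 0 of the 7 had an adjusted p under 0.05, where 0.677% of all genes tested did. At an unadjusted p under 0.05 there was 1 of 7, *KRT20*, beside 11.1% of all genes, and 5.17% of all genes were at that p and lower in PON1-OE. *KRT20* was also the 1 of 7 whose groups did not overlap in CPM, beside 16.1% of all genes. With DESeq2, which gave an adjusted p for 5 of the keratins, *KRT20* alone was under 0.05, beside 2.05% of all genes with such a p, and with limma-voom 0 were. The 95% intervals of all 7 log2FCs lay between −0.38 and 0.36, inside the 1.5-fold threshold that the study used, drawn as dotted lines in the plot of log2FCs. Differences in RNA of this size in a culture cannot tell fewer cells with a keratin from less RNA per cell.

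**Figure D2:**
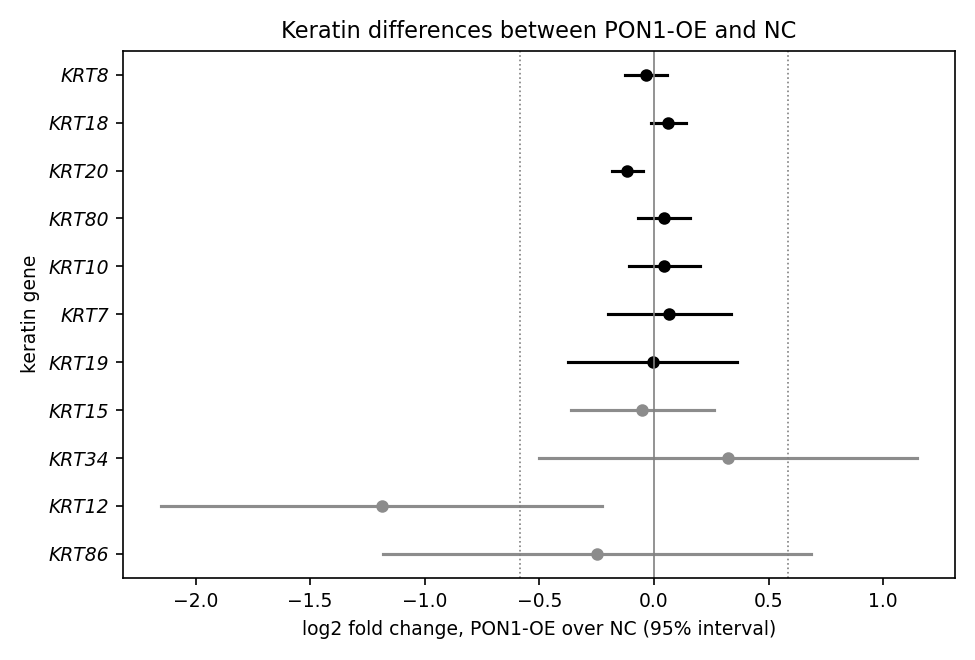
Log2FC of PON1-OE over NC with its 95% interval for the 7 keratins described here that were tested (black) and the 4 other tested keratins (grey). Dotted lines mark a 1.5-fold difference in either direction. The 7 black intervals lie between the dotted lines, and the intervals of *KRT20* (−0.18 to −0.050) and *KRT12* lie below 0.

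*KRT20* had the clearest difference among the keratins and a small one. Its gene lies at chr17:40875941-40885227 on the minus strand and its main transcript has 8 exons and 1737 bases (GENCODE v29, GRCh38). The estimated counts were 24169, 26804 and 26132 in NC against 22046, 22376 and 21778 in PON1-OE, which is 1464, 1482 and 1532 CPM against 1342, 1399 and 1390 CPM. The groups did not overlap, the highest PON1-OE value lying under the lowest NC value. Means were 1493 ± 35.6 CPM for NC and 1377 ± 30.7 CPM for PON1-OE (SD, n = 3 per group). The log2FC was −0.12 (SE 0.032, 95% interval −0.18 to −0.050), a difference in level of −7.73% (−11.9% to −3.39%). The adjusted p of edgeR's quasi-likelihood test was 0.123 and its unadjusted p 0.00155, while DESeq2 gave an adjusted p of 0.0111. With DESeq2 restricted to the genes that edgeR tested, an analysis added after the values were seen, it was 0.0224, so the call depended on the tool. An exact permutation test of 3 against 3 libraries cannot give a two-sided p below 0.1, and *KRT20* was at that value. Without NC replicate 3 the log2FC was −0.094 and edgeR's adjusted p 0.480. Among the 51 genes with a higher mean CPM, 43.1% had an unadjusted p under 0.05 and 7 an adjusted p under 0.05. No 75-base stretch of the main *KRT20* transcript occurs in another annotated gene.

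*KRT8* and *KRT18*, the partners that form the filaments of hepatocytes, did not differ between the groups beyond the spread of the libraries. *KRT8* (chr12:52897187-52949954, minus strand) had 42426, 39573 and 42186 counts in NC and 39882, 37791 and 35483 in PON1-OE. In CPM it stood at 2569, 2188 and 2474 in NC against 2428, 2363 and 2265 in PON1-OE. The lowest value of all was NC replicate 2, and the PON1-OE libraries lay within the NC range. The log2FC was −0.035 (SE 0.044, 95% interval −0.13 to 0.056) with an adjusted p of 0.834 by edgeR's quasi-likelihood test. It rested on single NC libraries, being 0.013 without NC replicate 1 and −0.10 without NC replicate 2, where edgeR's quasi-likelihood test gave an unadjusted p of 0.0110, or 0.266 after adjustment.

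*KRT18* (chr12:52948871-52952901, plus strand) had 26023, 26401 and 26409 counts in NC and 25936, 26723 and 24078 in PON1-OE. In CPM these were 1576, 1459 and 1549 against 1579, 1671 and 1537. The groups overlapped, NC replicate 2 again being lowest and PON1-OE replicate 2 highest. The log2FC was 0.063 (SE 0.036, 95% interval −0.013 to 0.14) with an adjusted p of 0.560 by edgeR's quasi-likelihood test. It was 0.031 without NC replicate 2 and 0.029 without PON1-OE replicate 2. Without PON1-OE replicate 3 it was 0.089, with an unadjusted p of 0.0420 by edgeR. The exons of *KRT8* and *KRT18* share 525 bases on opposite strands, and 25.5% of the 75-base stretches of the main *KRT18* transcript and 17.8% of those of *KRT8* also occur in other genes, among them *KRT8* and *KRT18* pseudogenes. Whether counting used the strand is not given in the sources used here, so reads from the shared bases could have been assigned to either gene.

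Ratios within a library do not depend on how the libraries are scaled. The count ratio of *KRT8* to *KRT18* was 1.63, 1.5 and 1.6 in NC against 1.54, 1.41 and 1.47 in PON1-OE. The groups overlapped, and the difference of the mean log2 ratio was −0.095 (two-sided exact permutation p = 0.2). *KRT20* was compared with both partners after its values had been seen, so no test is given. Its count ratio to *KRT18* was 0.929, 1.02 and 0.990 in NC against 0.850, 0.837 and 0.904 in PON1-OE, with no overlap and a difference of −0.18 in the mean log2 ratio. To *KRT8* the ratio was 0.570, 0.677 and 0.619 against 0.553, 0.592 and 0.614, with overlapping groups and a difference of −0.084, which ran from −0.15 (without NC replicate 1) to −0.020 (without NC replicate 2) with single libraries left out. *KRT20* thus separated the groups relative to *KRT18* but not relative to *KRT8*.

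**Figure D3:**
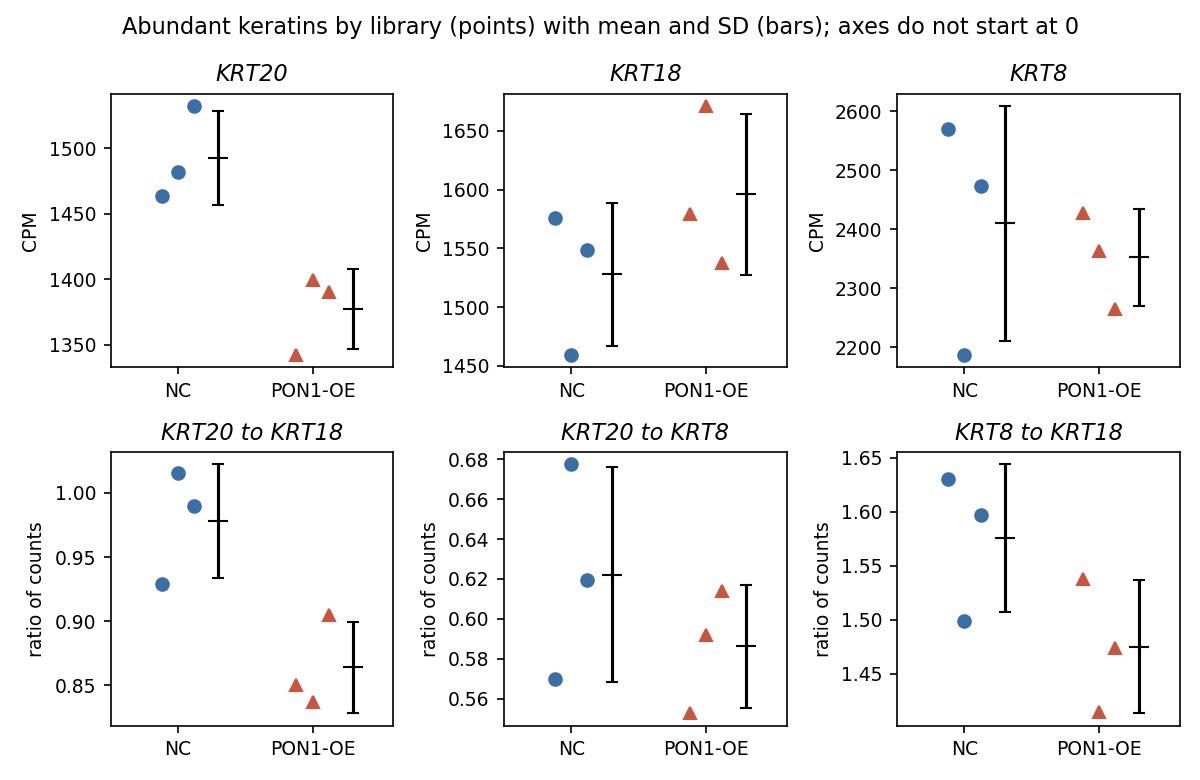
CPM (upper row) of *KRT20*, *KRT18* and *KRT8* and count ratios (lower row) between them in each NC (circles) and PON1-OE (triangles) library, with the mean and SD of each group as bars. The vertical axes do not start at 0. The groups separate for *KRT20* and for its ratio to *KRT18* and overlap in the other 4 panels.

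The bile duct keratins were measured at a level far below *KRT8* and *KRT18* and were near equal in the groups. *KRT7* (chr12:52232520-52252186, plus strand) had 139, 129 and 160 counts in NC and 142, 146 and 130 in PON1-OE, or 8.31 ± 1.13 CPM (SD, n = 3) and 8.69 ± 0.417 CPM. Its log2FC was 0.067 (SE 0.13, 95% interval −0.20 to 0.34), adjusted p = 0.899 by edgeR. Leaving out NC replicate 2 turned it to −0.035, and leaving out NC replicate 3 raised it to 0.16, with no call in either. Of its 75-base stretches, 9.05% also occur in the antisense gene *KRT7-AS*, and reads of the pair cannot be told apart without strand.

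*KRT19* (chr17:41523617-41528308, minus strand) is the small type I keratin that lacks most of the tail domain. It had 66, 74 and 65 counts in NC and 61, 71 and 58 in PON1-OE, or 3.97 ± 0.142 CPM (SD, n = 3) and 3.95 ± 0.422 CPM. Its log2FC was −0.0056 (SE 0.18, 95% interval −0.38 to 0.36), adjusted p = 0.993 by edgeR, and leaving out single libraries moved it between −0.096 and 0.042. The 95% interval does not exclude differences of *KRT19* inside it, and it is not a limit of detection. The count ratio of *KRT7* to *KRT19* was 2.11, 1.74 and 2.46 in NC against 2.33, 2.06 and 2.24 in PON1-OE, with overlapping groups (difference of the mean log2 ratio 0.083, two-sided exact permutation p = 0.7). With single libraries left out, that difference ran from −0.046 (without NC replicate 2) to 0.20 (without NC replicate 3).

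*KRT80*, a keratin of many epithelia, and *KRT10*, the suprabasal keratin, were measured at intermediate levels. *KRT80* (chr12:52168996-52192000, minus strand) had 1276, 1411 and 1487 counts in NC and 1381, 1290 and 1336 in PON1-OE. Its level was 80.8 ± 5.53 CPM and 83.3 ± 2.40 CPM (SD, n = 3 per group), with a log2FC of 0.044 (SE 0.055, 95% interval −0.069 to 0.16). With single libraries left out it ran from 0.014 (without NC replicate 1) to 0.10 (without NC replicate 3). *KRT10* (chr17:40818117-40822595, minus strand) had 495, 506 and 557 counts in NC and 496, 517 and 485 in PON1-OE. Its level was 30.2 ± 2.35 CPM and 31.2 ± 1.08 CPM, with a log2FC of 0.046 (SE 0.075, 95% interval −0.11 to 0.20). Without NC replicate 2 it was −0.0077 and without NC replicate 3 it was 0.11. The groups overlapped for both genes, with adjusted p of 0.831 and 0.879 by edgeR. *KRT10* shares 56 exonic bases with *TMEM99* on the opposite strand.

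The stress keratins and the hair keratin were at the detection floor. *KRT23* (chr17:40922696-40937634, minus strand) had 5, 10 and 0 counts in NC and 2, 1 and 2 in PON1-OE. Summed over the libraries of a group, 15 against 5 counts gave a ratio of PON1-OE over NC of 0.358 after TMM scaling. Its exact 95% interval of 0.102 to 1.04 covers counting error only. NC replicate 2 supplied 10 of the 15 NC counts, and in a fit of all genes without the filter the adjusted p was 0.691 by edgeR. *KRT17* (chr17:41619441-41624842, minus strand) had 7, 5 and 2 counts in NC and 2, 8 and 1 in PON1-OE, with a ratio of 0.844 (0.347 to 2.0) and an adjusted p of 0.945 in the same fit. *KRT81* (chr12:52285913-52291534, minus strand) had 2, 1 and 2 counts against 3, 2 and 2, and because no library exceeded the floor, no fold can be given. Its sequence is close to that of *KRT86*, with which most of its 36.6% of shared 75-base stretches are shared, so its counts are uncertain. Summed with *KRT83* and *KRT86* it had 15, 18 and 16 counts in NC and 13, 17 and 13 in PON1-OE, a log2FC of −0.083 (SE 0.36). *KRT17* summed with its close relatives *KRT14* and *KRT16* had 9, 9 and 2 counts against 2, 8 and 2, a log2FC of −0.62 (SE 0.73). Neither sum passed the test, with adjusted p of 0.959 and 0.809 by edgeR.

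The groups overlapped in the summed level of the keratins. The 10 genes summed to 5555 ± 267 CPM for NC and to 5453 ± 122 CPM for PON1-OE (SD over 3 libraries). Per length, the type I keratins summed to 1857 ± 45.3 and 1834 ± 53.9 RPKM and the type II keratins to 1307 ± 106 and 1277 ± 43.4 RPKM. The ratio of type I to type II RNA, computed after the values were seen, was 1.43 ± 0.0890 in NC and 1.44 ± 0.0604 in PON1-OE, an excess of type I RNA in every library that is carried by *KRT20* beside *KRT18*.

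**Figure D4:**
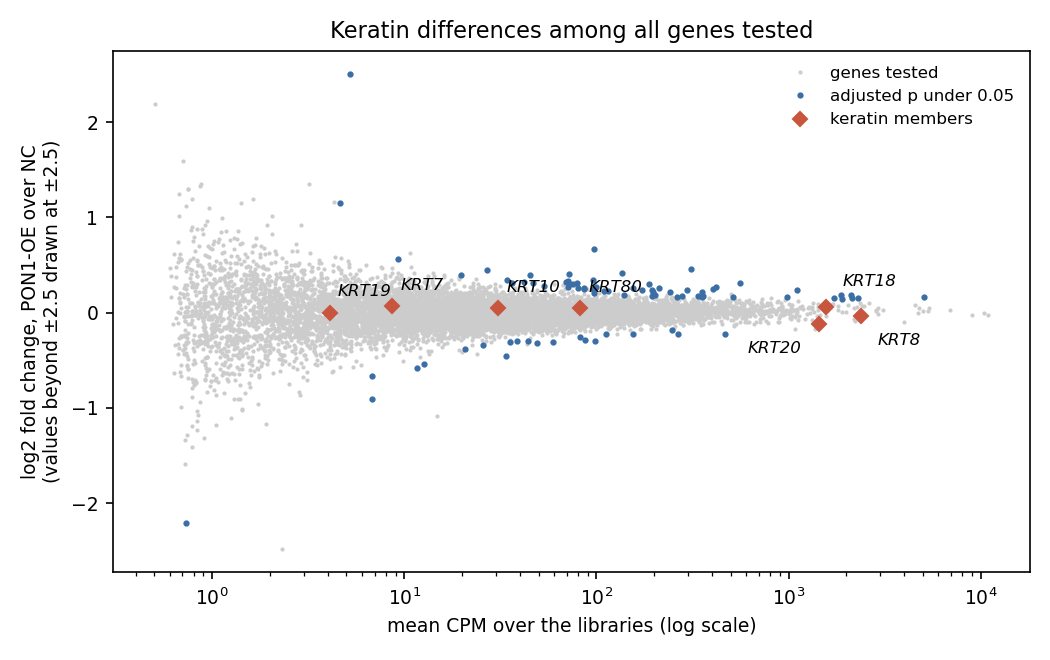
Log2FC of PON1-OE over NC against mean CPM (log scale) for all 11958 genes tested (grey), those with an adjusted p under 0.05 (blue) and the 7 tested keratins (diamonds). Values beyond ±2.5 are drawn at ±2.5. The 3 abundant keratins sit at the right, within 0.12 of 0, and none of the 7 is among the 81 genes with an adjusted p under 0.05.

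Of the 45 other keratin genes, 31 had no count in any library and 4 were tested. The absent ones included the basal and squamous keratins *KRT5*, *KRT6A* and *KRT13*. *KRT15*, a keratin of basal epithelial cells, had the highest level of the 45 with 6.08 ± 0.209 CPM (NC) and 5.88 ± 0.874 CPM (PON1-OE). *KRT34*, a hair keratin, stood at 0.823 and 1.04 CPM and *KRT86* at 0.621 and 0.522 CPM. *KRT12* had 18, 16 and 13 counts in NC and 3, 9 and 7 in PON1-OE, with no overlap and a log2FC of −1.19 (SE 0.46), an unadjusted p of 0.0180 and an adjusted p of 0.327 by edgeR. The counts of the 4 were 1 higher and 3 lower in PON1-OE, with a median log2FC of −0.15, and 0 passed the adjusted test.

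Keratin filaments are tied to desmosomes by plakins and other linkers, and of 23 such genes 16 were tested. Their fitted levels were higher for 11 and lower for 5, with a median log2FC of 0.040. At an unadjusted p under 0.05 there were 4 of 16, 3 higher and 1 lower, beside 11.1% of all genes, and 1 passed the adjusted test, beside 0.677%. That gene was *PLEC*, whose product plectin links intermediate filaments to hemidesmosomes and other structures. It rose from 2014 ± 69.0 to 2246 ± 17.9 CPM (log2FC 0.16, SE 0.031, adjusted p = 0.0203 by edgeR). Its call was lost without NC replicate 1 (adjusted p = 0.107 by edgeR), NC replicate 3 (0.194) or PON1-OE replicate 3 (0.113). *DSP*, encoding the desmosomal plakin that anchors keratins, stood at 253 ± 7.90 and 263 ± 7.41 CPM, and *JUP*, encoding plakoglobin, at 239 ± 11.9 and 245 ± 11.6 CPM. *PKP3* (log2FC 0.14, adjusted p = 0.278 by edgeR) and *PPL* (log2FC −0.28, adjusted p = 0.314), encoding plakophilin 3 and periplakin, did not pass.

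Of 28 genes for proteins that bind or modify keratins all were tested, 16 higher and 12 lower in fitted level, with a median log2FC of 0.013. At an unadjusted p under 0.05 there were 7 of 28, 2 higher and 5 lower, beside 11.1% of all genes, and 1 passed the adjusted test, beside 0.677%. *SFN*, encoding the epithelial 14-3-3 protein sigma that binds keratin 17, rose from 338 ± 13.4 to 381 ± 15.8 CPM (log2FC 0.17, SE 0.040, adjusted p = 0.0479 by edgeR). That value is just under the threshold, and the call was lost when any NC library but replicate 2, or any PON1-OE library, was left out, with edgeR's adjusted p reaching 0.347 without NC replicate 3. *HSPB1*, a small heat shock protein (log2FC −0.13, adjusted p = 0.184 by edgeR), and *YWHAG*, 14-3-3 gamma (log2FC −0.10, adjusted p = 0.242), did not pass. Among the most abundant were *SQSTM1*, an autophagy receptor, and *YWHAZ*, 14-3-3 zeta, with log2FCs of 0.018 and 0.031.

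Of the 16 other intermediate filament genes, the nuclear lamin genes *LMNA* and *LMNB2* and *NES* had the highest CPM. Of these 16, 9 were tested and 5 (*DES*, *NEFM*, *NEFH*, *INA* and *BFSP2*) had no count. The tested genes were 3 higher and 6 lower in fitted level, with a median log2FC of −0.061. At an unadjusted p under 0.05 there were 1 higher and 2 lower, beside 11.1% of all genes, and 0 passed the adjusted test. *LMNA* stood at 2855 ± 43.5 and 2957 ± 66.4 CPM, *LMNB2* at 170 ± 10.2 and 163 ± 6.54 CPM, and *NES*, encoding nestin, at 117 ± 1.64 and 122 ± 4.98 CPM. *VIM*, the mesenchymal filament gene, had 15.4 ± 1.38 and 14.1 ± 0.857 CPM, far below the abundant keratins. The smallest p-values belonged to rare transcripts, *SYNM* (0.892 to 0.292 CPM, log2FC −1.59, adjusted p = 0.170 by edgeR), *BFSP1* (2.11 to 1.08 CPM, log2FC −0.96, adjusted p = 0.176) and *PRPH* (1.17 to 1.90 CPM, log2FC 0.70, adjusted p = 0.428).

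Marker genes were read to check the label of liver and biliary epithelium. Of 10 hepatocyte markers 5 were tested, and their summed level was 105 to 109 CPM in the NC libraries and 102 to 107 CPM in the PON1-OE libraries, most of it *HNF4A* (78.6 ± 5.36 and 80.2 ± 1.89 CPM). *ALB*, encoding albumin, had 6, 11 and 13 counts in NC and 11, 4 and 7 in PON1-OE, so a defining hepatocyte gene was nearly absent, while *TF*, encoding transferrin, stood at 21.3 and 19.0 CPM. *APOB* (log2FC −0.36, adjusted p = 0.443 by edgeR) and *FGB* were low. In all, 1 was higher and 4 were lower, with 1 at an unadjusted p under 0.05, beside 11.1% of all genes, and 0 adjusted.

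Of 10 cholangiocyte markers 7 were tested, and 2, *CFTR* among them, had no count. Their summed level was 1271 to 1290 CPM in NC and 1272 to 1335 CPM in PON1-OE, most of it *CLDN4* (617 ± 15.4 and 624 ± 26.1 CPM), *SPP1* and *ANXA4*. *EPCAM* had 0 to 8 counts in a library. The fitted levels were 3 higher and 4 lower, with 3 of 7 at an unadjusted p under 0.05 and 1 adjusted, beside 11.1% and 0.677% of all genes. *SPP1*, encoding the secreted protein osteopontin, rose from 317 ± 7.25 to 358 ± 4.50 CPM (log2FC 0.17, SE 0.035, adjusted p = 0.0231 by edgeR). Its call was lost when any single library other than PON1-OE replicate 2 was left out, with an adjusted p of up to 0.194 by edgeR, without NC replicate 3. *ANXA4* (log2FC −0.11, adjusted p = 0.214 by edgeR) and *MUC1* (log2FC −0.51, adjusted p = 0.217) did not pass. The markers of both lists were thus mixed. *KRT7* and *KRT19* were low, *CFTR* was at 0 and *ALB* near 0, while *CLDN4*, *SPP1*, *ANXA4* and *HNF4A* were well above the floor. The keratins are therefore named here by their genes and not by a liver cell type.

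Some genes known from intestinal epithelium were abundant beside *KRT20*, while others were at lower levels or near absent. Of 7 markers, *KRT20* itself among them, 5 were tested and *FABP2* had no count. The summed level was 2196 to 2288 CPM in NC and 2118 to 2177 CPM in PON1-OE. Most of it was *KRT20* (1493 ± 35.6 and 1377 ± 30.7 CPM), so the sum is not a measure separate from *KRT20*. *LGALS4*, encoding a galectin of the gut epithelium, stood at 458 ± 11 and 501 ± 12.5 CPM (log2FC 0.13, adjusted p = 0.117 by edgeR), and *CDH17*, encoding an intestinal cadherin, at 244 ± 3.60 and 236 ± 8.22 CPM (log2FC −0.047). Of the 5 tested, 2 had an unadjusted p under 0.05, beside 11.1% of all genes. These, *KRT20* and *LGALS4*, differed in opposite directions. Adjusted, 0 passed by edgeR or limma-voom. Both passed by DESeq2, beside 2.05% of all genes with an adjusted p there. The part of the other intestinal markers in the *KRT20* difference was not tested.

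Markers of other cell types were read for the same reason. Of 9 basal and squamous markers 5 had no count and 1, *KRT15*, was tested. White blood cell markers other than *CD68* (215 ± 10.4 and 235 ± 12 CPM, adjusted p = 0.252 by edgeR) had no count, *PTPRC* and *CD3E* among them. Of 4 endothelial markers 2 were tested, *PECAM1* (13.1 and 15.1 CPM) and *KDR* (9.24 and 10.9 CPM), with 0 at an unadjusted p under 0.05, beside 11.1% of all genes. Of 10 mesenchymal markers 6 were tested, 3 higher and 3 lower, with *TWIST1* and *THY1* at 0. *FN1*, encoding fibronectin, stood at 2268 ± 128 and 2439 ± 92.8 CPM (log2FC 0.11, adjusted p = 0.275 by edgeR). It was the 1 of 6 mesenchymal markers at an unadjusted p under 0.05, beside the same 11.1%. Of 8 epithelial junction markers 5 were tested and *GRHL2* had no count. At an unadjusted p under 0.05 there was 1 of 5 (*CLDN1*, log2FC 0.18, adjusted p = 0.431 by edgeR), again beside 11.1%. *CDH1*, encoding E-cadherin, stood at 14.3 ± 1.27 and 12.4 ± 0.753 CPM. *TJP1* (133 and 136 CPM) and *OCLN* (54.7 and 53.9 CPM), of tight junctions, and the mesenchymal genes *CDH2* (73.2 and 72.5 CPM) and *ZEB1* (21.0 and 21.2 CPM) were close to equal in the group means. *SPARC*, *VWF* and *TP63* stayed under 1 CPM in both group means. For the hepatocyte, basal, white blood cell, endothelial, mesenchymal and junction markers, as for the other keratins and the other intermediate filament genes, 0 passed the adjusted test by edgeR, DESeq2 or limma-voom.

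**Figure D5:**
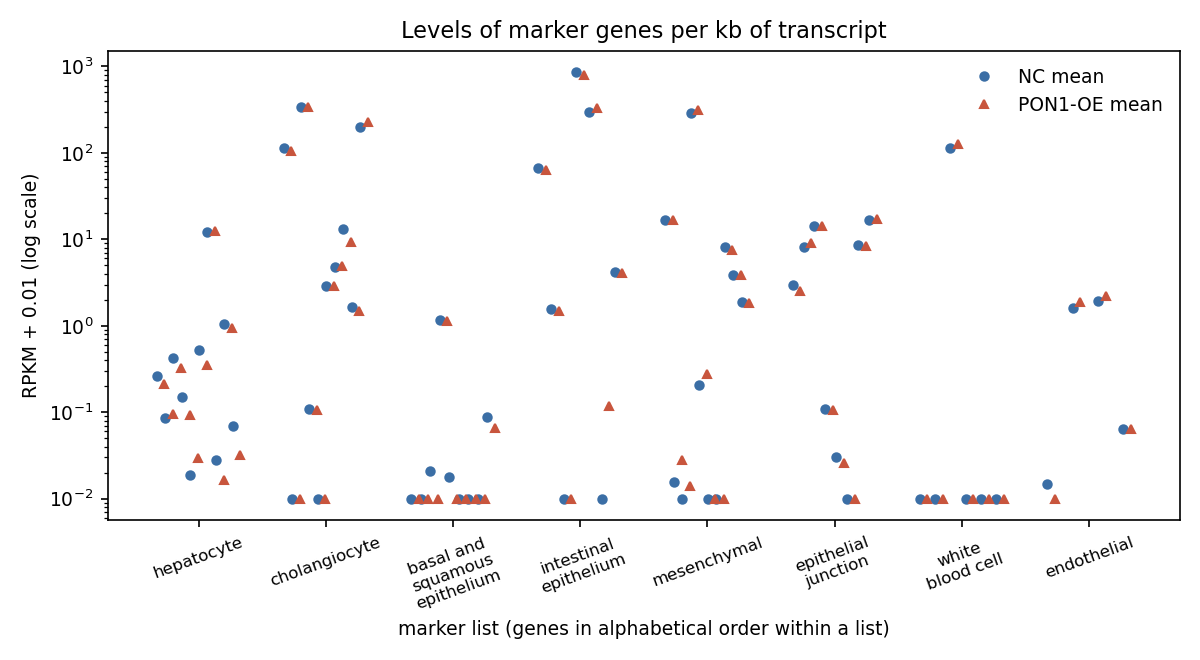
Mean level per length (RPKM plus 0.01, log scale) of each marker gene in NC (circles) and PON1-OE (triangles), 3 libraries each, by marker list. Points at the bottom are genes without a count. The highest markers include *KRT20*, *CLDN4*, *SPP1* and *FN1*, and the 2 groups differ little beside the spread between genes.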

How the data were processed

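RNA-seq of HCCLM3 cells was deposited as 1 table of estimated counts for 6 libraries, 3 NC and 3 PON1-OE, each column being matched to a library by its name. The authors' estimated counts were deposited without normalization and 10.5% of the values were not whole numbers. The submitters' processing notes name HISAT2, Bowtie2 2.2.8, StringTie 1.3.1 and DESeq2. The genome build and annotation are not given in the sources used here. Of the identifiers, 20126 were found in GENCODE v29 (GRCh38), which gave coordinates, transcripts and shared 75-base stretches. Only *KRT8*, *KRT10* and *KRT20* of the 10 keratins had a RefSeq promoter entry.

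After rounding of the counts, edgeR 4.0.16 was run in R 4.3.3. filterByExpr kept 11958 genes (15542 were tested without it, with *KRT17*, *KRT23* and *KRT81* read from that fit). Libraries were scaled by TMM, PON1-OE was compared with NC by the quasi-likelihood test, with Benjamini-Hochberg adjustment over every gene tested. CPM and RPKM were computed here, RPKM with the length of the principal, lowest-numbered transcript. Single ratios were compared by exact permutation tests (scipy 1.17.1). Alternatives used DESeq2 1.42.0, limma 3.58.1, other filters and scaling, a replicate block and leaving out each library. The procedure was tested on simulated data with differences larger than those of the tested keratins, so that test does not show how well such small differences are found.

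The 10 keratins and the gene lists were chosen with earlier results of these data known. All 10 were described. From the other lists, genes with an adjusted p under 0.05, the up to 3 smallest p-values and the 3 highest levels were named. *ALB*, *EPCAM*, *VIL1*, *CDX2*, *MUC2* and genes without a count were named besides, after their values were seen. *KRT4*, under the rule but near 0, is not described further, and some listed genes are not reported here. Floors and the intervals of the *KRT23* and *KRT17* count ratios cover counting error only, while those of the log2FCs include the spread between libraries.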

Additional observations from a re-analysis of the deposited data

How the results depend on the processing

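The sign of *KRT8*, *KRT7*, *KRT19*, *KRT10* and *KRT17* depended on single libraries. Leaving out each library in turn, the log2FC ran from −0.10 to 0.013 for *KRT8*, from −0.035 to 0.16 for *KRT7*, from −0.096 to 0.042 for *KRT19*, from −0.0077 to 0.11 for *KRT10* and from −1.47 to 0.20 for *KRT17*. For *KRT20* it ran from −0.13 to −0.094, with edgeR's adjusted p from 0.0568 to 0.480, so *KRT20* kept its sign and was never past the threshold. With DESeq2 its log2FC was −0.12 and it passed, as it did with DESeq2 on the filtered genes (−0.12), which made the number of the 10 keratins past the adjusted p 1 in both. Without the filter its adjusted p was 0.0518 and with limma-voom 0.0726. Of the keratins kept by the filter, 1 to 2 were past an unadjusted p of 0.05 with single libraries left out. *KRT8* was added without NC replicate 2 and *KRT18* without PON1-OE replicate 3. *KRT23*, read from the fit without the filter, had a log2FC from −1.98 to −0.49 with single libraries left out. Its unadjusted p by edgeR was 0.0456 without NC replicate 3, or 0.628 after adjustment. The genes past the adjusted p over the whole table, 81, became 177 without the filter, 6 with the 1.5-fold threshold and 11 to 103 with single libraries left out, the fewest without NC replicate 3. The deviations of same-numbered NC and PON1-OE libraries from their group means had correlations of 0.0173, −0.0231 and 0.0205. No pairing by number was seen, though 3 libraries per group cannot decide it. With the replicate block 40 genes passed, *KRT20* had an adjusted p of 0.260 by edgeR, and *PLEC* (0.0787), *SFN* (0.0689) and *SPP1* (0.0663) lost their calls. *SFN* also lost its call with limma-voom (0.0524). The causes were not tested. *KRT23*, *KRT17* and *KRT81* had few counts, so their values are uncertain.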

Other observations

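Transcription factors known to act at keratin genes were read as a further list. Of 29, 23 were tested and 4, *TFAP2C*, *CDX1* and *GRHL2* among them, had no count. The fitted levels of 10 were higher and of 13 lower in PON1-OE, with a median log2FC of −0.0077, beside −0.0025 over all genes tested. Of the 23, 2 higher and 1 lower were at an unadjusted p under 0.05, beside 11.1% of all genes. The adjusted test was passed by 0 with edgeR, DESeq2 or limma-voom. *ETS1* stood at 236 ± 6.54 and 259 ± 16.8 CPM (log2FC 0.13, adjusted p = 0.226 by edgeR), and *FOSL1*, a subunit of AP-1, at 253 ± 6.46 and 271 ± 5.72 CPM (log2FC 0.10, adjusted p = 0.294). *FOXA1*, a pioneer factor of liver, stood at 10.5 ± 1.79 and 8.74 ± 0.0721 CPM (log2FC −0.27, adjusted p = 0.443 by edgeR). The highest levels were those of *JUN* (471 ± 14.3 and 471 ± 9.86 CPM), *FOSL2* (353 ± 11.4 and 336 ± 8.88 CPM) and *SP1* (283 ± 7.18 and 282 ± 6.93 CPM). The log2FC of *SP1* was −0.0077.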
